A study of Mus musculus with 56 samples.

Results

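Ccl25, Cxcl12 and Ackr4 encode the chemokines CCL25 and CXCL12 and a scavenging receptor for the first of them, and their RNA was followed in sorted thymic epithelial cells (TECs) through pregnancy and the weeks after birth. The 3 genes were found by their Ensembl identifiers among the 50600 genes quantified in each sample, with symbols from GENCODE release M21. RNA with poly-A tails was sequenced from 28 samples of cortical TECs (cTECs) and 28 of medullary TECs (mTECs), both sorted as EpCAM+ CD45- cells of the thymus and parted by UEA1, a lectin that does not bind the sorted cTECs and binds the sorted mTECs. All samples came from B6.SJL (CD45.1) female mice. NPC were non-pregnant, age-matched females, D-2 were pregnant females, 18 days into gestation, and D0 to D28 were females from the day of parturition to 28 days later. The females of D-2 and after were mated with BALB/cJ males, and the pups were taken away at birth, so that no female of the postpartum groups nursed. No drug or transgene was part of these groups, and each sample was RNA of 1 mouse. In each cell type there were 3 samples each for NPC and D-2, for D0 and D3, and for D6 and D12. The time points D1 and D2, D4 and D5, D8 and D10, D16 and D20, and D24 and D28 had 1 sample each. D0 to D12 made up the early phase (18 samples of a cell type) and D16 to D28 the late one (4 samples).

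The thymus holds no lasting pool of its own stem cells and depends on progenitors that arrive from the blood. CCL25, which binds the receptor CCR9, and CXCL12, which binds CXCR4, are secreted by TECs and draw these progenitors into the thymus, and both also guide developing thymocytes within the cortex. ACKR4 is an atypical chemokine receptor on TECs that takes up CCL19, CCL21 and CCL25 without signalling through G proteins and so removes them. Ccl25 and Cxcl12 are known targets of FOXN1, the transcription factor that TECs need for their differentiation and that reads a short sequence with the core GACGC.

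On GRCm38, Ccl25 (ENSMUSG00000023235.14) lies at chr8:4325210-4360020 on the plus strand, where its first end overlaps Elavl1 on the opposite strand. Cxcl12 (ENSMUSG00000061353.11) lies at chr6:117168535-117181367 on the plus strand and overlaps no other annotated gene. Ackr4 (ENSMUSG00000079355.5) lies at chr9:104084157-104126933 on the minus strand and overlaps Acad11, Gm47000 and Gm46999 on the other strand. The library kit keeps strand, but the strand setting of the counting was not given in the sources used here, so reads of Ccl25 and Ackr4 cannot be told apart with certainty from those of their overlapping genes. Elavl1 was at 7.81 to 45.8 FPKM in cTECs and Acad11 at 14.1 to 49.6 FPKM, below every cTEC value of Ccl25 and of Ackr4. In mTECs Acad11, at 13.3 to 37.6 FPKM, was in the range of Ackr4.

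The bases before the annotated starts are shown because both chemokines are known FOXN1 targets and FOXN1 reads the core GACGC. All 3 genes had entries in the RefSeq promoter table (GRCm38.p6). The 250 bases before each start were searched for GACGC on both strands, and matches are in capitals. The first start of Ccl25 had 1 match on the plus strand, 56 bases before the start. The 250 bases before this start overlap an untranslated part of Elavl1, on the other strand, and only the match with 12 bases on each side is printed (chr8:4325142-4325170).
Ccl25 first start, plus strand: ctttgaagaagcGACGCtcattggttggc
The 250 bases before the second start of Ccl25 (chr8:4349338-4349587) lie inside the gene, outside its annotated exons, and held no match.
Ccl25 second start, plus strand: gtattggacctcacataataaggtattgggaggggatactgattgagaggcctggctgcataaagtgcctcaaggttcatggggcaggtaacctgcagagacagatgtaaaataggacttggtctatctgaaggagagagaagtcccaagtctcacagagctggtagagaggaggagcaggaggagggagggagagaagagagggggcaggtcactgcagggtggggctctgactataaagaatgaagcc
The bases before the start of Cxcl12 (chr6:117168285-117168534) lie in no annotated gene and held 1 match on the minus strand, read as GCGTC on the plus strand, 62 bases before the start.
Cxcl12 start, plus strand: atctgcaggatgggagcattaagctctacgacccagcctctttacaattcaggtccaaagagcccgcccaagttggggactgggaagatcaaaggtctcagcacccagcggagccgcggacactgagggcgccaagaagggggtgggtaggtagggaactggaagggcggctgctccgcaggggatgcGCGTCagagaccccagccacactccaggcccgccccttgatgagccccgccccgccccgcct
The 250 bases before the start of Ackr4 held no match. Of all 32851 windows of this length in the table, 7423 (22.6%) held the motif, and 6715 of 27025 genes (24.8%) had it in at least 1 window. A match of 5 letters is a description of the sequence and not a site of binding, and the values below do not tell which start of Ccl25 was used.

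Levels are FPKM, fragments scaled by transcript length and by sequencing depth, as deposited, and errors are SD with n = 3 unless another n is given. Total expected counts were 6470058 to 44409019 per sample in cTECs (median 22823582) and 4561208 to 108547384 in mTECs (median 15590738), and the members held 185 to 150053 counts per sample, so counting error was small beside the spread between mice. The summed mTEC markers (9 genes, among them Aire and Ccl21a) did not overlap between the cell types, at 3662 to 8124 FPKM in cTECs and 10469 to 19853 FPKM in mTECs. Most of this sum was Ccl21a, in NPC a mean of 12514 of 16403 FPKM in mTECs and 3425 of 5248 FPKM in cTECs. The summed cTEC markers without the members (6 genes, Psmb11, Prss16, Ly75, Enpep, Tbata and Ctsl) did overlap, at 1249 to 11359 FPKM in cTECs and 767 to 4690 FPKM in mTECs. Psmb11 was a small part of this sum. In NPC cTECs it held 73.8 to 231 FPKM beside a sum of 5376 to 6753 FPKM. In NPC mTECs it held 7.77 to 26.6 FPKM beside a sum of 1681 to 1857 FPKM. No replicates held identical values, and the labels named no batch.

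In cTECs, Ccl25 RNA was low at the end of pregnancy and at birth and high from D2 to D16. NPC samples held 1995, 2513 and 882 FPKM, D-2 samples 535, 240.4 and 404 FPKM, and D0 samples 741, 683 and 564 FPKM. The D-2 samples lay below every other cTEC sample, and the third NPC mouse was far below the other two. D1 held 1326 FPKM and D2 2814 FPKM, and D3 samples held 2864, 3240.5 and 1626 FPKM. From D4 to D12 the level stayed high, at 4047 FPKM at D4, 3492 at D5, 3774, 3543 and 2438 at D6, 3459.7 at D8, 3373 at D10 and 3818, 3391 and 3719.7 at D12. The later single samples were lower at each step, where D16 held 2709 FPKM, D20 1699 FPKM, D24 1118 FPKM and D28 843 FPKM, the last below the lowest NPC sample. The course spanned 16.8-fold from the lowest to the highest of the 28 samples.

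Ordered by their means, the replicated cTEC groups for Ccl25 ran from D-2 (393 ± 147 FPKM) through D0 (662 ± 89.9), NPC (1797 ± 833), D3 (2577 ± 845) and D6 (3252 ± 714) to D12 (3643 ± 223). D-2 and D0 did not overlap, nor did D0 and NPC, while NPC and D3, D3 and D6, and D6 and D12 each overlapped. The mean at D-2 was 0.219 of that of NPC, and the means at D3, D6 and D12 were 6.56, 8.27 and 9.27 times the mean of D-2. Spread between mice was widest in NPC, with a coefficient of variation of 46.4%, and narrowest at D12, with 6.13%.

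Cxcl12 in cTECs was also low at D-2 and higher after birth, over a smaller range. Its replicated groups peaked at D6, while Ccl25 stayed high to D12. NPC samples held 571, 614 and 707 FPKM, D-2 samples 407, 284 and 382 FPKM, and D0 samples 509, 526 and 437 FPKM. D6 samples held 857, 1099 and 1111 FPKM, the last 2 being the highest of all. Before it, D1 held 599 FPKM, D2 740.5, D3 707, 850.3 and 735, D4 871 and D5 838 FPKM. After it, D8 held 812 FPKM, D10 739, D12 896, 728 and 652, and D16 867 FPKM. D20, D24 and D28 held 323, 405 and 455 FPKM, all below every NPC sample, with D20 and D24 in the range of D-2. From the lowest to the highest sample the level spanned 3.90-fold.

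The order of the replicated cTEC groups for Cxcl12 was D-2 (358 ± 64.8 FPKM), D0 (490.5 ± 47.4), NPC (631 ± 69.2), D12 (759 ± 125), D3 (764 ± 76.1) and D6 (1022 ± 143). D-2 and D0, D0 and NPC, and D3 and D6 did not overlap, and the other neighbours did. The mean at D6 was 2.86 times that of D-2.

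Ackr4 had no such peak after birth in cTECs, and its lowest replicated mean was at D0, at 54.9% of the NPC mean. D0 was not tested against NPC. NPC samples held 249, 266 and 213 FPKM, D-2 samples 193, 171 and 151 FPKM, D0 samples 115, 180.5 and 105 FPKM, and D6 samples 188, 197 and 143 FPKM. D3 samples held 179, 125 and 195 FPKM and D12 samples 211, 189 and 127 FPKM. The single samples ranged from 146 FPKM at D16 to 255 FPKM at D4, and D20, D24 and D28 held 246, 235 and 177 FPKM. Of the 6 replicated groups, D0 (133 ± 41.2), D3 (166 ± 37.0), D-2 (172 ± 20.8), D12 (175 ± 43.2) and D6 (176 ± 29.1) each overlapped the next, and only NPC (243 ± 26.9) lay above its neighbour without overlap. All 28 samples lay within a 2.54-fold span.

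**Figure D1:**
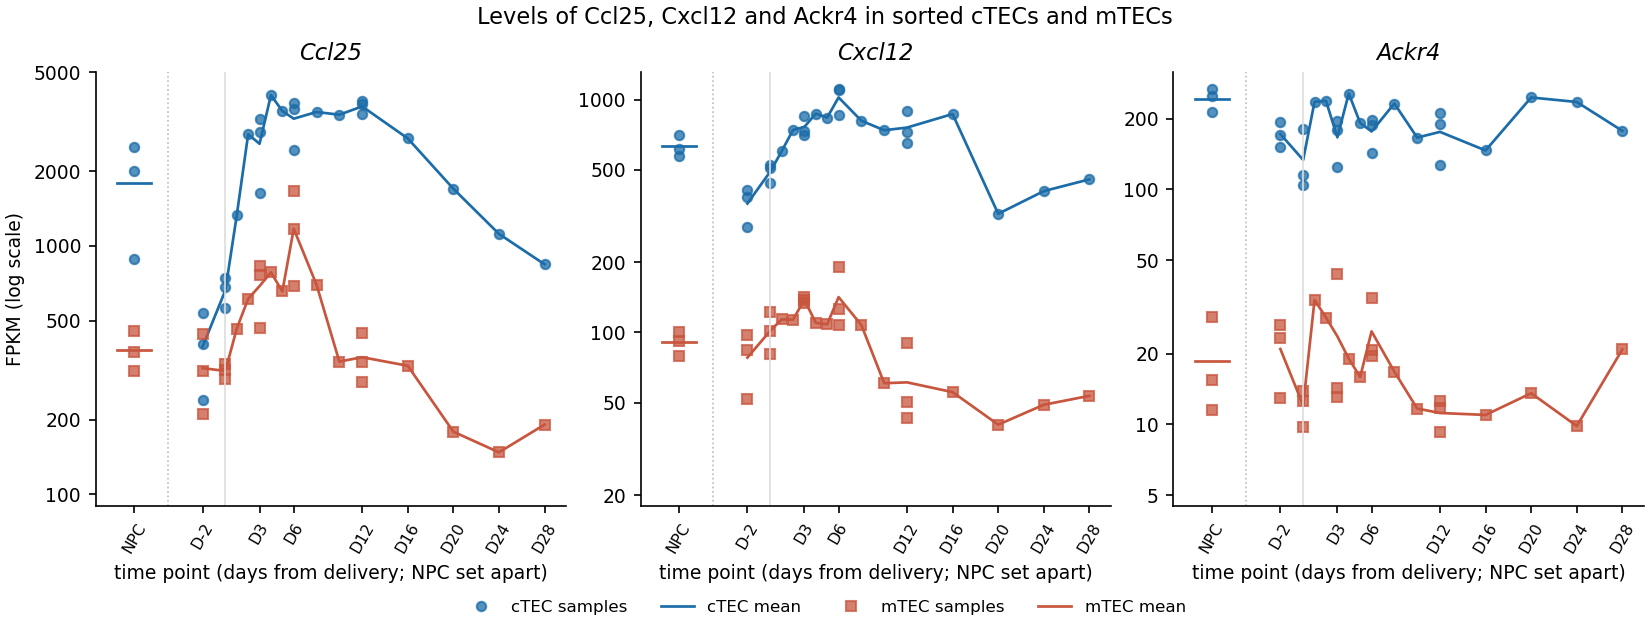
FPKM (log axis) of Ccl25, Cxcl12 and Ackr4 in each sample of cTECs and mTECs, by time point, with a point for each mouse and lines through the means; NPC stand apart on the left. In cTECs Ccl25 rose from 240.4 to 535 FPKM at D-2 to 3391 to 3818 FPKM at D12, while Ackr4 stayed between 105 and 266 FPKM in every cTEC sample.

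The tests used limma-voom on all 28 samples of a cell type, and a gene was called where its fold reached 2 and its p, adjusted by Benjamini-Hochberg over all genes tested, did not exceed 0.01. Values of limma are given as log2 fold changes with their standard errors (SE). The comparisons with D-2 all use the same 3 D-2 samples, and those with NPC the same 3 NPC samples, so they are not independent of each other. In bulk samples, fewer cells of a type and less RNA per cell cannot be told apart.

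Against NPC, the 2 chemokines were lower at D-2 in cTECs but did not pass the thresholds, at -2.13 (SE 0.36, adjusted p = 0.0126, limma) for Ccl25 and -0.80 (SE 0.16, adjusted p = 0.0313, limma) for Cxcl12. No member was called, against 0.0947% of the 15845 genes tested, while 2 had an unadjusted p under 0.05, as did 1324 of all genes, and edgeR and DESeq2 each called 1, Ccl25. The 6 cTEC markers without the members summed to 5376 to 6753 FPKM in NPC and 1249 to 2268 FPKM at D-2, with 6 of 6 lower, the thymocyte markers to 38.6 to 223 and 31.4 to 37.9 FPKM (15 of 16 lower), and the 5 epithelial markers to 3445 to 6816 and 3411 to 3827 FPKM (5 of 5 lower). The part of these in the difference was not tested. Without the third NPC mouse, in which Ccl25 was lowest, Ccl25 was called at -2.62 (adjusted p = 0.000727, limma). This was the only call in 6 fits without 1 sample. The 6 ran from -2.62 to -1.80, with adjusted p up to 0.113 (limma). Ackr4 had a value of -0.46 (adjusted p = 0.66, limma). At D0, no gene of all those tested was called against D-2 by limma, with 623 at an unadjusted p under 0.05, 0 by edgeR and 15 by DESeq2, and the percent called was 0. Of the members, 2 had an unadjusted p under 0.05 and edgeR and DESeq2 called none. The differences at D0 were 0.79 for Ccl25, 0.43 for Cxcl12 and -0.42 for Ackr4.

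Both chemokines rose from D-2 to D3, D6 and D12 in cTECs, and Ackr4 did not pass the thresholds at any of these times. At D3, 2 of the 3 members were called, against 0.114% of all genes (0.107% as higher), with Ccl25 at 2.67 (SE 0.36, adjusted p = 0.00159, limma) and Cxcl12 at 1.02 (SE 0.16, adjusted p = 0.00502, limma). At D6 the differences were 3.09 for Ccl25 (SE 0.35, adjusted p = 3.83e-05, limma) and 1.52 for Cxcl12 (SE 0.15, adjusted p = 1.11e-05, limma), where 1.58% of all genes were called and 0.77% were called as higher. At D12, with 0.77% of all genes called and 0.511% called as higher, they were 3.30 (SE 0.35, adjusted p = 5.17e-05, limma) and 1.10 (SE 0.15, adjusted p = 0.000489, limma). Ackr4 differed from D-2 by -0.05 at D3 (95% interval -0.59 to 0.48), 0.05 at D6 (-0.46 to 0.56) and 0.05 at D12 (-0.46 to 0.56), intervals that leave out a fold of 2 in either direction.

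The calls at D3 held in fewer fits than those at D6. In edgeR Cxcl12 at D3 came to 0.99, just under a fold of 2, and was not called, while DESeq2 called both chemokines. A limma fit on only the samples compared called neither at D3, at 2.69 for Ccl25 and 1.03 for Cxcl12 (adjusted p = 0.0693 and 0.0724). Without the second D-2 mouse, which had the lowest Ccl25 and Cxcl12 of all cTEC samples, the D3 values were 2.35 (adjusted p = 0.0259, limma) for Ccl25 and 0.87 (adjusted p = 0.0387) for Cxcl12. Cxcl12 at D3 also lost its call without the third D-2 mouse (1.08, adjusted p = 0.0121, limma) or the second D3 mouse (0.98, adjusted p = 0.0179). Cxcl12 at D12 came to 0.94 without the second D-2 mouse and 0.95 without the first D12 mouse, just under a fold of 2, with adjusted p of 0.00512 and 0.00580 (limma).

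Compared with NPC, no member was called at D12 or in the late phase. At D12 the differences were 1.18 for Ccl25 (adjusted p = 0.55, limma), 0.31 for Cxcl12 and -0.41 for Ackr4, and no gene of all those tested was called (percent called 0), with 1048 at an unadjusted p under 0.05, 0 called by edgeR and 1 by DESeq2. In the late phase they were -0.26 for Ccl25 (95% interval -0.92 to 0.39), -0.43 for Cxcl12 and -0.37 for Ackr4, against 0.0694% of genes called. Of the members, 1 had an unadjusted p under 0.05 in each of these comparisons and none was called by edgeR or DESeq2.

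Late against early cTECs gave no call among the members either, against 1.41% of all genes. Ccl25 had a mean of 1592 ± 825 FPKM (n = 4) in the late phase and 2717 ± 1188 FPKM (n = 18) in the early phase, a difference of -0.79 on the log2 scale (adjusted p = 0.267, limma). Cxcl12 had 512 ± 243 FPKM late and 761 ± 182 FPKM early, at -0.70 (adjusted p = 0.0325, limma), which is less than a fold of 2. Ackr4 had 201 ± 47.4 and 182 ± 44.6 FPKM, at 0.03. Of the members, 1 had an unadjusted p under 0.05 (4310 of all genes), and edgeR and DESeq2 called 0. In voom without the filter on low values, Ccl25 was called, at -1.86. The late samples were not alike, since D16 lay in the range of D6 and D12 for Cxcl12 and well above D20 to D28 for both chemokines. The early samples also pooled low and high days. Ccl25 was at 564 to 741 FPKM at D0 and 3391 to 3818 FPKM at D12, beside 843 to 2709 FPKM late. Late against D12 alone was not tested.

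**Figure D2:**
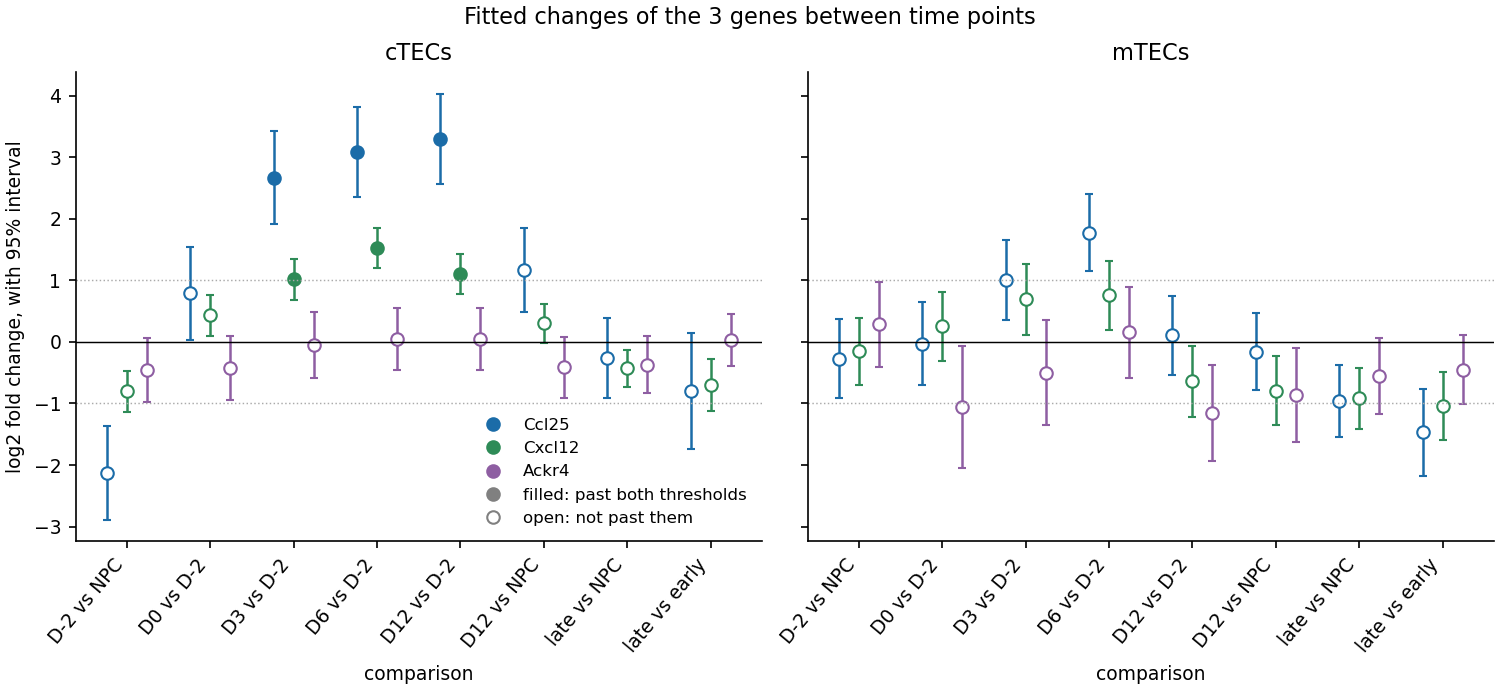
Log2 fold changes with 95% intervals of Ccl25, Cxcl12 and Ackr4 for each comparison of time points in cTECs and mTECs, from limma-voom; filled points passed both thresholds. Ccl25 and Cxcl12 passed at D3, D6 and D12 against D-2 in cTECs, and no member passed in mTECs.

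In mTECs the same genes were measured at lower levels. Ccl25 was at 454, 373 and 312 FPKM in NPC, 440.4, 211 and 315 FPKM at D-2, and 334, 290.4 and 317 FPKM at D0. It was higher at D3, with 766, 833 and 468 FPKM, and at D6, with 688, 1662 and 1168 FPKM. By D12 it was back at 446, 283 and 340.3 FPKM, and D16, D20, D24 and D28 held 329, 179, 148 and 191 FPKM. The 3 samples of D20 to D28 were the lowest of all mTEC samples, while the second and the third D6 mice were the highest. Ordered by their means, the groups ran D0 (314 ± 22), D-2 (322 ± 115), D12 (357 ± 83.0), NPC (379.8 ± 70.9), D3 (689 ± 194) and D6 (1173 ± 487), and only NPC and D3 did not overlap as neighbours. The single samples of D1 to D10 held 464 FPKM at D1, 613 at D2, 783 at D4, 656 at D5, 698 at D8 and 342 at D10.

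Cxcl12 in mTECs was at 91.6, 101 and 79.3 FPKM in NPC and at 84.3, 51.6 and 98 FPKM at D-2. D0 samples held 122, 81.1 and 101.5 FPKM, and the single samples from D1 to D8 were close to each other, from 108 to 114 FPKM, with 60.5 FPKM at D10. D3 samples held 134, 138 and 143 FPKM, close together, and D6 samples 108, 192 and 126 FPKM. D12 samples held 90.1, 42.8 and 50.2 FPKM, and D16 to D28 held 55.4, 40.2, 48.9 and 53.4 FPKM. The late samples lay below every sample of NPC, D0, D3 and D6, and overlapped D-2 and D12. D12 was thus the lowest replicated group in mTECs (61.0 ± 25.5 FPKM), and D-2 (78.0 ± 23.8), NPC (90.6 ± 10.8), D0 (102 ± 20.5), D3 (138 ± 4.31) and D6 (142 ± 44.2) followed, with D0 and D3 the only neighbours that did not overlap.

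Ackr4 in mTECs was low and scattered, from 9.24 FPKM in the second D12 mouse to 43.6 FPKM in the first D3 mouse. NPC samples held 15.4, 28.7 and 11.6 FPKM, D-2 samples 23.4, 12.9 and 26.4 FPKM, and D6 samples 19.5, 34.4 and 20.6 FPKM. All neighbours in the order of its 6 replicated groups overlapped.

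No comparison of time points called a member in mTECs with limma. For D6 against D-2, Ccl25 differed by 1.78 (SE 0.30, adjusted p = 0.0143, limma) and Cxcl12 by 0.76 (adjusted p = 0.374), against 0.0113% of the 17743 genes called. Of the members, 2 had an unadjusted p under 0.05 (1339 of all genes), edgeR called 0 and DESeq2 called 1, Ccl25. Without the first D6 mouse, whose Ccl25 was lowest of the 3, Ccl25 was called at 2.16 (adjusted p = 0.00322, limma). This was the only call in 6 fits without 1 sample. The 6 ran from 1.43 to 2.16, with adjusted p up to 0.131 (limma). For D3 against D-2, Ccl25 differed by 1.00 (adjusted p = 0.113, limma) and Cxcl12 by 0.69 (adjusted p = 0.225), with 0.0113% of genes called, 2 members and 2710 of all genes at an unadjusted p under 0.05, and 0 members called by edgeR or DESeq2.

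Late against early, both chemokines had lower means in mTECs, and neither passed the threshold on the adjusted p. Ccl25 had 212 ± 80.6 FPKM (n = 4) late and 619.6 ± 353 FPKM (n = 18) early, at -1.47 (SE 0.35, adjusted p = 0.0287, limma). Cxcl12 had 49.5 ± 6.78 and 108 ± 35.4 FPKM, at -1.05 (adjusted p = 0.0411, limma), and Ackr4 13.8 ± 4.94 and 18.9 ± 9.77 FPKM, at -0.45. The share of genes called was 0.062%, 2 members and 3541 of all genes had an unadjusted p under 0.05, edgeR called 0 and DESeq2 called 1, Cxcl12. In the remaining mTEC comparisons limma, edgeR and DESeq2 called no member. These were D-2 against NPC (0.569% of genes called), D0 against D-2 (0%), D12 against D-2 (0.49%), D12 against NPC (0%) and the late phase against NPC (0.00564%). At an unadjusted p under 0.05 they held 0, 1, 2, 2 and 2 of the 3 members, beside 2981, 1136, 2750, 2119 and 2896 of the 17743 genes. Over all genes tested, limma and edgeR called 0 for D0 against D-2 and for D12 against NPC, with 1136 and 2119 genes at an unadjusted p under 0.05, and DESeq2 called 11 and 10.

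All 3 members were higher in cTECs than in mTECs, by least for Ccl25 at the end of pregnancy. In 26 pairs of samples with the same time point and number, cTECs were higher in 26 for each member. The same held for Prss16 and Psmb11, and Foxn1 was higher in cTECs in 23 of the 26. The median ratio was 4.41 for Ccl25 (1.14 to 12), 7.04 for Cxcl12 (3.90 to 17.0) and 12.5 for Ackr4 (4.10 to 23.9). For Cxcl12 and Ackr4 no cTEC sample overlapped the mTEC samples of its time point at the 6 replicated time points. At the 10 others 1 sample stood against 1, and the cTEC value was the higher. The shares of all genes with such counts are not given here. Ccl25 overlapped at D-2 alone, where the ratio of the means was 1.22, and the ratio was 4.73 in NPC, 2.77 at D6, 9.85 at D10 and 10.2 at D12. These pairs share a number and a time point, and the labels do not say that they share a mouse.

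Tested over all 56 samples and 18394 genes, Cxcl12 was higher in cTECs in each replicated group, from 2.12 on the log2 scale at D-2 to 3.94 at D12. Ackr4 was likewise called in all 6 groups, from 2.77 at D6 to 4.14 at D12. Ccl25 was called at NPC (2.13, adjusted p = 8.4e-05, limma), D3 (1.89, adjusted p = 0.00161), D6 (1.55, adjusted p = 0.00078) and D12 (3.47, adjusted p = 3.29e-09). It was not called at D-2 (0.21, 95% interval -0.61 to 1.04) or D0 (1.05, adjusted p = 0.0796, limma). In the order NPC, D-2, D0 and then D3, D6 and D12, the shares of all genes called as higher in cTECs were 2.14%, 0.631%, 0.864%, 0.815%, 1.13% and 4%, and those called in either direction 5.12%, 1.67%, 2.74%, 1.49%, 4.19% and 9.54%. The Ccl25 call at D6 was lost without the first mTEC D6 mouse (1.14, adjusted p = 0.0430, limma). At D3 it was lost without the second cTEC mouse (1.73, adjusted p = 0.0145, limma) or the third mTEC mouse (1.60, adjusted p = 0.0145).

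**Figure D3:**
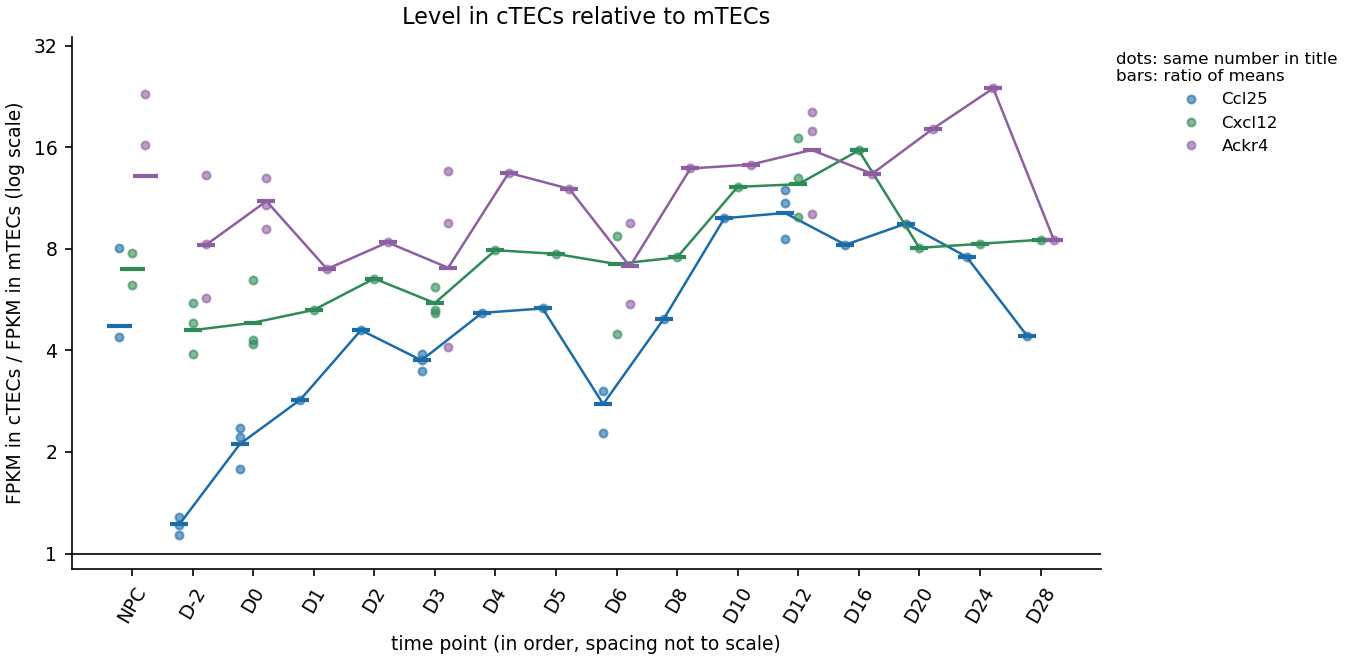
FPKM in cTECs over FPKM in mTECs (log axis) at each time point for Ccl25, Cxcl12 and Ackr4; short bars are ratios of means, dots are pairs of samples with the same number, and time points are evenly spaced. The ratio of means for Ccl25 came to 1.22 at D-2 and 10.2 at D12, while those for Cxcl12 and Ackr4 were never below 4.59 and 6.97.

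The change from D-2 to D12 itself differed between the cell types for both chemokines. The interaction, the cTEC change minus the mTEC change on the log2 scale, was 3.26 (SE 0.51, adjusted p = 0.00135, limma) for Ccl25 and 1.82 (SE 0.32, adjusted p = 0.00564, limma) for Cxcl12, where 0.114% of genes were called and 0.109% with a greater change in cTECs. For Ackr4 it was 1.32 (adjusted p = 0.488, limma). At D12 every cTEC sample lay above the D-2 samples for both chemokines, and every mTEC sample lay in or below the D-2 range, apart from the first D12 mouse for Ccl25. The Ccl25 call was lost without the second cTEC D-2 mouse (2.88, adjusted p = 0.0248, limma), the third mTEC D-2 mouse (3.19, adjusted p = 0.0229) or the second mTEC D12 mouse (3.06, adjusted p = 0.0125). In edgeR the Ccl25 interaction was called and that of Cxcl12 was not (1.56, adjusted p = 0.0439), and DESeq2 called both. The Cxcl12 call was also lost in 6 of 12 fits without 1 mouse. These left out the second cTEC D-2 mouse (1.61), the first cTEC D12 mouse (1.65), the first or the third mTEC D-2 mouse (1.81 and 1.47), or the second or the third mTEC D12 mouse (1.53 and 1.72), with adjusted p from 0.0142 to 0.163 (limma).

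For the change from NPC to D-2 the interaction was -1.92 for Ccl25 (adjusted p = 0.273, limma), -0.68 for Cxcl12 and -0.80 for Ackr4. For D6 against D-2 it was 1.33 (adjusted p = 0.822, limma), 0.76 and -0.05. No member was called in either, with 2 at an unadjusted p under 0.05 in each and 0 called by edgeR or DESeq2, beside 1480 and 904 of all genes at that p. Of all genes, 0% were called for D-2 against NPC, where edgeR called 0 and DESeq2 25, and 0.00544% for D6 against D-2. A greater rise of Ccl25 in cTECs than in mTECs by D6 was therefore not shown.

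Among 38 genes of chemokine ligands, Ccl25 and Cxcl12 in cTECs were near the top by FPKM, a scale that allows for length. In cTECs Ccl21a, a CCR7 ligand, was first and Ccl25 second in NPC and at D-2, D0, D3 and D12. At D6 Ccl25 was first, with 3252 FPKM against 2163 ± 372 FPKM for Ccl21a. Cxcl12 was the fourth in NPC and the third at the later times. In mTECs Ccl21a was first at every replicated time, at means of 9766 to 12514 FPKM, and Ccl25 was the fourth in NPC and at D-2, D0 and D12, the third at D3 and second at D6. Cxcl12 in mTECs was the sixth at D0 and D6 and not among the first 6 in the other replicated groups. Ccl21a has near-identical copies in the genome, so its level is uncertain. It is also on the mTEC marker list. Whether cells of mTEC type in the cTEC sort carry its cTEC level was not tested. Among all 50600 genes, Ccl25 in cTECs had rank 29 in NPC, 215 at D-2 and 10 at both D6 and D12.

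Most other chemokine ligands had a lower fitted level at D6, where Ccl25 and Cxcl12 were higher. Of 27 tested in cTECs without the members, 6 were fitted as higher and 21 as lower than at D-2, with a median of -1.16 against -0.02 for all genes. These counts weigh low and abundant ligands alike. Cxcl10, at rank 4 of the 38 ligands in cTECs at D-2 and D6, had a higher mean at D6, 665 against 298 FPKM. Only Ccl21a passed the thresholds, 1 of 128 genes of the 15845 called as lower, at D6 by -1.16 (SE 0.24, adjusted p = 0.00810, limma), from 4776 ± 1319 to 2163 ± 372 FPKM. All 9 mTEC markers, Ccl21a among them, had lower means in cTECs at D6 than at D-2. Their sum was 5821 to 8124 FPKM at D-2 and 3662 to 4261 FPKM at D6. The part of cells of mTEC type in the lower Ccl21a was not tested. Of 32 ligands tested in mTECs, 8 were fitted as higher and 24 as lower, and none was called. Between the cell types at D6, 28 of 32 ligands had a lower fitted level in cTECs, with a median of -2.38 against -0.17 for all genes. Of these ligands 5 were called as lower and none as higher, beside 563 and 208 of the 18394 genes, while Ccl25 and Cxcl12 were called as higher.

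Receptors and partners of the 2 chemokines were tested as lists. Of Ccr9, Cxcr4, Ccr7 and Cxcr3, 3 were tested in each cell type and none was called in any comparison of time points, with Cxcr3 too low for the test. Ccr9, the CCL25 receptor, had means of 7.30 FPKM in NPC, 2.71 at D-2 and 9.17 at D12 in cTECs, and a difference of 0.73 at D6 against D-2 (adjusted p = 0.713, limma). Cxcr4, the CXCL12 receptor, had means of 2.56 FPKM in NPC and 0.913 at D-2 in cTECs. Ccr7, a receptor of CCL19 and CCL21, was the only call of this list between the cell types. At D6 it was lower in cTECs (0.293 ± 0.300 FPKM) than in mTECs (5.22 ± 3.34 FPKM), at -5.28 with 1 cTEC library at 0 (SE 1.2, adjusted p = 0.00376, limma). Of the other atypical receptors, Ackr3, which also binds CXCL12, was the only one tested in cTECs, at 7.13 FPKM in NPC and 4.42 at D-2, and differed by -2.20 at D6 (adjusted p = 0.244, limma). Of the 3 tested in mTECs (Ackr1, Ackr2 and Ackr3) none was called between time points. Between the cell types Ackr2 was called at D12, with 0 to 0.01 FPKM in cTECs and 0.68 to 1.85 FPKM in mTECs (adjusted p = 0.0037, limma).

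Of 5 partners, Ccl21a was the only one called in a comparison of time points. Ccl19, the other CCR7 ligand, had medians of 32.9 FPKM in cTECs and 131 FPKM in mTECs, with -0.54 at D6 against D-2 in cTECs and 0.81 in mTECs (adjusted p = 0.715 and 0.426, limma). Mif, a ligand that CXCR4 can also bind, had means in cTECs of 201 FPKM in NPC and 213 FPKM at D6, with 0.03 at D6 against D-2. Cxcl14, which modulates CXCR4, had means of 2.26 FPKM at D-2 and 0.58 FPKM at D6 in cTECs (adjusted p = 0.0958, limma), where 2 of the 3 D6 libraries were at 0. Dpp4, the peptidase that trims CXCL12, differed by -1.29 and -0.54 (adjusted p = 0.768 and 0.997). Between the cell types at D6, Ccl19, Ccl21a and Cxcl14 were called as lower in cTECs.

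The study describes the 8 other FOXN1 targets listed here on these same samples, so their direction is not independent evidence. In cTECs 5 were called as higher at D6 against D-2 (0.77% of all genes), with a median of 2.77 over the 8 and -0.02 over all genes. They were Prss16 (3.72), a serine protease of cTECs, Psmb11 (3.73), the proteasome subunit of cTECs, Dll4 (3.96), the Notch ligand, Cd83 (3.71) and Ctsl (1.84), a cathepsin. The 3 others were class II MHC genes, fitted as lower and not called. At D-2 against NPC, Prss16 (-2.80) and Ctsl (-1.19) were called as lower, beside 0.0947% of all genes called. In mTECs 8 of 8 were fitted as higher at D6, with a median of 1.31, and none was called. Foxn1 itself had 91.7 ± 17.2 FPKM at D-2 and 219 ± 90.0 FPKM at D6 in cTECs, a difference of 1.19 that did not pass the thresholds (adjusted p = 0.0810, limma). Late against early it was called as lower in cTECs, at -1.28 (adjusted p = 0.00386, limma).

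Over the 28 samples of a cell type, which follow each other in time, the 2 chemokines moved together. The permutations treat these samples as exchangeable, so their p does not set a closer relation apart from a shared course over time. In cTECs Pearson's r of log2(FPKM + 0.5) was 0.81 and Spearman's rho 0.79, each with a permutation p of 1e-05, the smallest that 100000 permutations can give, and 3e-05 after adjustment over 6 relations. Without D-2 replicates 2 and 3, r was 0.73 (adjusted permutation p = 6e-05). In mTECs r was 0.82 and rho 0.84 (permutation p = 1e-05, adjusted 3e-05), and 0.79 without D6 replicates 2 and 3. For Ackr4 no relation with either chemokine was detected in cTECs, where r was 0.24 with Ccl25 (rho 0.21, permutation p = 0.217 and 0.272, adjusted 0.26 and 0.327) and 0.03 with Cxcl12 (rho 0.04, permutation p = 0.866 and 0.849). In mTECs r was 0.52 with Ccl25 (rho 0.54, permutation p = 0.00434 and 0.00354, adjusted 0.00651 and 0.00531) and 0.56 with Cxcl12 (rho 0.56, permutation p = 0.00193 and 0.00219, adjusted 0.00386 and 0.00438). Without the 2 samples farthest from the median these were 0.43 (adjusted permutation p = 0.0405) and 0.52 (adjusted permutation p = 0.0143).

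The ratio of Ccl25 to Cxcl12 in cTECs was 2.94 ± 1.50 in NPC, was 1.07 ± 0.234 at D-2 and 1.35 ± 0.0915 at D0, and came to 3.36 ± 1.00 at D3, 3.27 ± 1.11 by D6 and 4.88 ± 0.747 by D12. The ratio of Ccl25 to its scavenger receptor Ackr4 was 7.19 ± 2.75 in NPC, 2.28 ± 0.760 at D-2, 16.8 ± 8.86 at D3 and 21.8 ± 6.47 at D12. Late against early, 6 ratios (3 pairs of members in 2 cell types) were compared by 2-sided exact permutation tests of the mean log2 ratio. Only Ccl25 over Ackr4 in mTECs passed an adjusted p of 0.05, lower late by -1.07 (exact permutation p = 0.00738, adjusted p = 0.0443). It did not pass without D20 (-1.0, adjusted exact p = 0.171), D24 (-1.06, 0.0677) or D28 (-0.84, 0.126). In cTECs the differences were -0.06 for Ccl25 over Cxcl12 (adjusted exact p = 0.847), -0.85 for Ccl25 over Ackr4 (0.159) and -0.79 for Cxcl12 over Ackr4 (0.0596). Without D16, the last 2 were -1.30 (adjusted exact p = 0.0496) and -1.22 (0.00902). Cxcl12 over Ackr4 in mTECs was -0.68 (adjusted exact p = 0.0596), and -0.83 (0.0451) without D16, and Ccl25 over Cxcl12 in mTECs was -0.39 (0.201).

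The genes most like each member were named by Pearson's r over the 28 samples, among 10067 genes of cTECs and 10501 of mTECs with a mean of at least 5 FPKM, as a description. For Ccl25 in cTECs they were Tbata (0.98), Bnip3l (0.98), Isg20 (0.97), Prss16 (0.96) and Cstb (0.96), and in mTECs Tbata (0.95), Psmb11 (0.93), Prss16 (0.92), Fxyd2 (0.91) and Trpm2 (0.89). Tbata and Prss16 were in both lists. For Cxcl12 in cTECs they were Fgf14 (0.92), Clic5 (0.91), Rab11fip4 (0.90), Gch1 (0.90) and Tbc1d2b (0.90), and in mTECs Scnn1a (0.92), Gas6 (0.92), Clic5 (0.91), Slco2b1 (0.90) and Castor1 (0.89). Clic5 was in both of these. For Ackr4 no gene of cTECs was above 0.62 (Impdh1, then Cd59a, Nexn, Zfp444 and Mrpl23), and in mTECs Xrcc5 (0.79), Rchy1 (0.74), Exoc7 (0.70), Reps1 (0.69) and Scarf2 (0.68) led. Foxn1 stood at place 334 for Ccl25 in cTECs (r = 0.66) and 45 in mTECs (r = 0.76), and Cxcl12 at place 102 for Ccl25 in cTECs and 20 in mTECs.

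Markers of other cells moved with some of these results. The 16 thymocyte markers summed to 31.4 to 37.9 FPKM in cTECs at D-2 and to 92.4 to 118 FPKM at D6, with 16 of 16 higher, and over the 28 samples their sum had an r of 0.87 with Ccl25, 0.63 with Cxcl12 and 0.19 with Ackr4. The 10 mesenchymal markers summed to 292 to 381 FPKM at D-2 and 131 to 193 FPKM at D6, with 3 higher and 7 lower, and were at 345 to 712 FPKM in the late samples against 114 to 396 FPKM early, with 10 of 10 higher. The mTEC markers in cTECs were 5821 to 8124 FPKM at D-2 and 3662 to 4261 FPKM at D6, with 9 of 9 lower. The 5 epithelial markers summed to 3411 to 3827 FPKM in cTECs at D-2 and 6033 to 11799 FPKM at D6, with 5 of 5 higher, and their sum had an r of 0.88 with Ccl25 and 0.67 with Cxcl12. In mTECs 5 of 5 were also higher at D6, and r with Ccl25 was 0.81. The part of these in the results was not tested. Endothelial markers stayed between 0 and 13.9 FPKM in all cTEC samples. Over the 28 cTEC samples the sum of the 10 mesenchymal markers had an r of -0.31 with Ccl25, -0.55 with Cxcl12 and 0.35 with Ackr4. The part of mesenchymal RNA in the cTEC values was not tested.

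The cTEC markers without the members went with the chemokines in both sorts. Among the 6 are Psmb11, Prss16 and Ctsl, FOXN1 targets named above, and Tbata, most like Ccl25, so the list is not separate from those results. In cTECs the sum of the 6 was 1249 to 2268 FPKM at D-2, 9394 to 11087 FPKM at D6 (6 of 6 higher) and 8970 to 9354 FPKM at D12. Late it was 3644 to 11359 FPKM, highest at D16, against 2283 to 11087 FPKM early (4 of 6 lower and 2 higher). In mTECs it was 767 to 1413 FPKM at D-2 and 2730 to 4690 FPKM at D6 (5 of 6 higher), and 820 to 1529 FPKM late against 934 to 4690 FPKM early (6 of 6 lower). Its r over the 28 samples was 0.95 with Ccl25 and 0.88 with Cxcl12 in cTECs, and 0.93 and 0.87 in mTECs. In mTECs macrophage and dendritic cell markers were 98.4 to 246 FPKM late and 22 to 184 FPKM early, with 11 of 12 higher. Whether cells of cTEC type in the mTEC sort carry the mTEC values of Ccl25 and Cxcl12 was not tested.

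**Figure D4:**
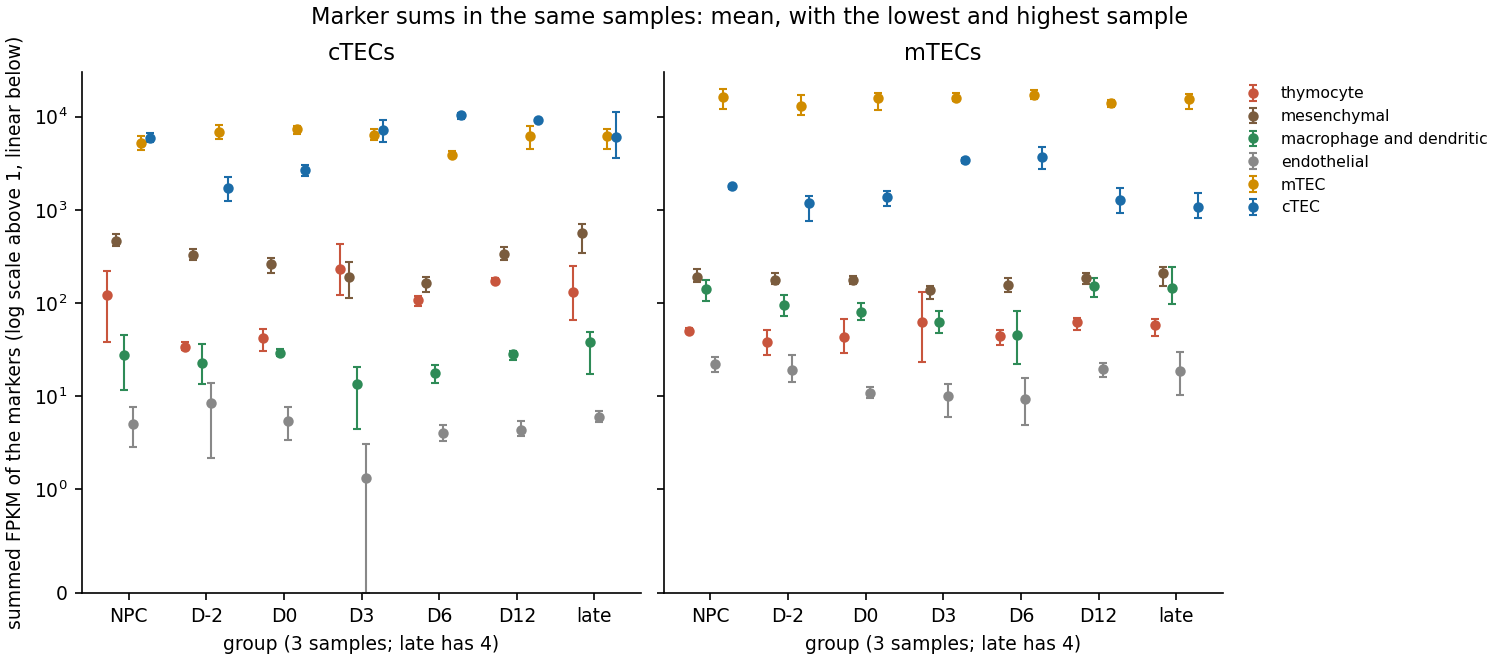
Summed FPKM (axis logarithmic above 1 and linear below) of 6 of the 7 marker lists (without the epithelial one) in the replicated groups and the late phase, in cTECs and mTECs; points are means, bars run from the lowest to the highest sample, and the members are left out of the cTEC list. The cTEC markers in cTECs were at 1249 to 2268 FPKM at D-2 and 9394 to 11087 FPKM at D6.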

How the data were processed

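Members and gene lists were chosen with earlier results of these data known. The authors trimmed reads with Trimmomatic 0.35, aligned them to GRCm38 with STAR 2.5.1b and quantified genes with RSEM 1.2.28, per the labels and methods. Their deposited tables hold an expected count per gene without normalization, and FPKM and TPM values scaled by transcript length and sequencing depth. The annotation release was not given in the sources used here. GENCODE M21 symbols matched 50376 of 50600 genes.

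Expected counts were rounded to whole numbers, scaled by TMM (edgeR 4.0.16) and fitted with limma-voom (limma 3.58.1, R 4.3.3), with 1 mean per time point or phase. Genes with a mean of at least 0.5 FPKM over the 28 samples of a cell type, or in either cell type for comparisons between them, were tested. Ratios and correlations used log2(FPKM + 0.5) in SciPy 1.17.1, with an adjusted p of at most 0.05. Sums of markers are described without a test. The named genes were the members, the receptors and partners listed, other ligands past the thresholds at D6 against D-2, and the 5 genes most like each member. Alternatives were edgeR's quasi-likelihood test, DESeq2 1.42.0, other filters, scaling, pseudocounts, TPM, sample weights, a replicate block and leaving out each sample. The tests were tried on simulated data. Comparisons fitted with 1 mean per time point are set against the spread between the mice sampled. The late-against-early tests and the correlations pool samples of different days, so their spread also takes in change over time.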

Additional observations from a re-analysis of the deposited data

Results flagged for a closer look

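The change from D-2 to D12 differed between the cell types for Ccl25 and Cxcl12, by the test of the difference itself. The cTEC change minus the mTEC change was 3.26 on the log2 scale for Ccl25 (95% interval 2.21 to 4.31, adjusted p = 0.00135, limma) and 1.82 for Cxcl12 (1.17 to 2.48, adjusted p = 0.00564, limma). In cTECs the changes were 3.30 and 1.10, and in mTECs 0.11 and -0.64. The Cxcl12 difference was not called by edgeR (1.56) and was lost in 6 of 12 fits without 1 mouse, and the Ccl25 difference was lost in 3 of 12. In voom without the filter on low values neither was called (3.56 and 2.28). Dixon's criterion for a sample far from the others was applied to the 4 late samples of each cell type, where no value of the 3 members met it, and groups of 3 were not tested.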

How the results depend on the processing

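No value changed sign where it was called. Of 666 values of 75 log2 fold changes under other settings, 612 kept their side of the thresholds, 24 passed and 30 no longer passed, and of 498 values with 1 sample left out 478 kept it. For the 6 ratios 17 of 18 values kept it, and for the 6 correlations all 24. The cause of the changes was not tested.

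Without a filter on low values, voom kept the direction of every called value and lost most calls. Ccl25 then came to 2.62 between the cell types in NPC, 2.86 at D3, 3.27 at D6 and 3.39 at D12 against D-2 in cTECs, and 3.56 for the interaction at D12. Cxcl12 came to 2.71, 1.79, 3.02 and 4.07 in NPC, D-2, D6 and D12 between the cell types, to 1.09, 1.36 and 1.39 at D3, D6 and D12 in cTECs, and to 2.28 for the interaction. Ackr4 came to 3.72, 2.82, 2.89 and 4.4 between the cell types. Calls between the cell types were also lost at D3 for Ccl25 (2.16), and at D0 and D3 for Cxcl12 (2.5 and 2.40) and Ackr4 (3.53 and 3.13), 22 of 24 in all. The same setting gained calls for Ccl25 late against early in cTECs (-1.86) and Cxcl12 at D12 against D-2 in mTECs (-1.11). An edgeR fit without the filter, added after seeing the data, kept the calls that voom then lost but for Cxcl12 at D3 (0.99), and gained the Ccl25 interactions for D-2 against NPC (-1.99) and D6 against D-2 (1.13) and Ccl25 between the cell types at D0 (1.05).

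With only the samples compared, calls were lost for Ccl25 between the cell types in NPC (2.09) and at D6 (1.47), and for Ccl25 (2.69) and Cxcl12 (1.03) at D3 in cTECs, and 1 was gained for Ccl25 between the cell types at D0 (1.04). With sample weights Ccl25 between the cell types at D3 was lost (1.79). edgeR lost Cxcl12 at D3 (0.99) and its interaction at D12 (1.56).

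Ccl25 at D-2 against NPC in cTECs passed at an adjusted p of 0.05 (-2.13), in edgeR (-2.17), DESeq2 (-2.17), edgeR without the filter (-2.17), with sample weights (-2.19) and without TMM (-2.18). Ccl25 at D6 in mTECs passed at 0.05 (1.78), in DESeq2 (1.77), with sample weights (1.77) and in edgeR without the filter (1.85). Late against early in mTECs, Ccl25 passed at 0.05 (-1.47), with D12 as late (-1.29) and with 1 mean per time point (-1.50), and Cxcl12 at 0.05 (-1.05), in DESeq2 (-1.13), with D12 as late (-1.18) and with 1 mean per time point (-1.05). With D12 as late, Ccl25 over Ackr4 in mTECs was -0.64 and no longer passed.

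With the replicate block, Ccl25 at D-2 against NPC in cTECs passed (-2.15), and no other call changed. Samples of the 2 cell types with the same number showed little pairing, with correlations of their deviations from -0.14 to 0.13 over 16 pairs and 2 above 0.1, and time points are different mice.

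With 1 sample left out, the ranges were -2.62 to -1.80 for Ccl25 at D-2 against NPC, 2.35 to 2.95 for Ccl25 and 0.87 to 1.12 for Cxcl12 at D3, 0.94 to 1.23 for Cxcl12 at D12 (all cTECs), 1.43 to 2.16 for Ccl25 at D6 in mTECs, 1.14 to 1.92 for Ccl25 between the cell types at D6, and 2.88 to 3.50 and 1.47 to 2.00 for the interactions of Ccl25 and Cxcl12 at D12. The ratios ranged from -1.30 to -0.64 for Ccl25 over Ackr4 and -1.22 to -0.50 for Cxcl12 over Ackr4 in cTECs, and from -1.40 to -0.84 and -0.83 to -0.51 in mTECs. Time points with 1 mouse are assumed to vary like the others, and low receptors are limited by depth.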

Other observations

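Cxcl12 transcripts were slightly longer on average in cTECs, a difference without a test. The length that RSEM weighted over the transcripts of Cxcl12 was 1993 to 2142 bases in cTECs (median 2040) and 1919 to 2027 bases in mTECs (median 1976). It was longer in cTECs in 25 of 26 pairs of samples with the same time point and number, against 8 of 26 for Ccl25 and 13 of 26 for Ackr4. GENCODE M21 lists Cxcl12 transcripts of 1878, 2894, 3132 and 5627 bases. The transcript levels behind these lengths were not analysed here.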
